A study of Mus musculus with 12 samples.

Results

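Transcripts for the proteins of the large subunit of the cytoplasmic ribosome were examined in mouse oocytes with and without the RNA-binding proteins ZAR1 and ZAR2. Members were taken by symbol, as the rows named Rpl followed by a number with or without an a, together with the stalk genes Rplp0, Rplp1 and Rplp2. This gave 46 members among the 23230 genes of the expression table, and all 46 reached 1 FPKM, the number of fragments scaled to exon length and library size, in at least 1 library. WT oocytes and oocytes of Zar1/2-/- females (labelled Zar1/2-null) were sequenced at 3 stages, and each of the 6 groups holds 2 libraries made from 10 oocytes. Females giving growing oocytes were 13.5 days old by the labels, and fully grown oocytes with an intact germinal vesicle (GV) came from females of 21 days, 44 h after pregnant mare serum gonadotropin (PMSG). The ovulated oocytes, labelled MII for metaphase of the second meiotic division, were taken 16 h after human chorionic gonadotropin (hCG). By the study's methods, superovulated females were of the same age range as those giving GV oocytes and received PMSG 44 h before hCG. The labels do not give the meiotic stage that each ovulated oocyte had reached. By the study's own description Zar1/2-/- oocytes arrested in meiosis I, at metaphase or telophase. In every comparison at MII the genotype and the meiotic stage thus cannot be told apart in these libraries. The study also held maturing oocytes in meiosis I with nocodazole, a microtubule disruptor, and reports that the selected mRNAs it measured were still degraded. All females shared the C57BL6/ICR hybrid background, and both null alleles were made with CRISPR/Cas9 and are present in every cell, follicle cells included. No source used here says that the 2 libraries of a group came from different females, so a p-value measures the spread between libraries, which may be technical.

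Ribosomal proteins are made in the cytoplasm, imported into the nucleolus and built onto ribosomal RNA, and each subunit is then exported. Most ribosomal protein mRNAs of vertebrates begin with a cytosine followed by a run of pyrimidines, the 5′ terminal oligopyrimidine tract, through which growth signals set their translation as a group. A growing mouse oocyte transcribes and stores mRNA, transcription stops in the fully grown oocyte, and many stored mRNAs, ribosomal protein mRNAs among them, are deadenylated and degraded once meiosis resumes. Smart-seq2 primes reverse transcription with oligo(dT), so fewer molecules and a shorter poly(A) tail cannot be told apart in these libraries.

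The bases around the annotated start of transcription are shown for 15 members, because the results below turn on which members were kept or lost at MII. They are the 9 members with a matched start and at least 50% of their GV level at MII in Zar1/2-/- oocytes (Rpl38 to Rpl31), the 4 with a matched start and the smallest share of it (Rpl24, Rpl19, Rpl28 and Rpl6), and Rpl4 and Rpl37, which had a smaller share of it in Zar1/2-/- than in WT oocytes. Each line gives 15 bases before and 15 bases after a RefSeq start in build GRCm38.p6, 5′ to 3′ on the strand of the gene, with the longest unbroken run of C and T in capitals. Where a gene had several RefSeq starts, the one with the longest run was taken, for members and for all genes alike.
Rpl38 (chr11:114668565-114668594, plus strand): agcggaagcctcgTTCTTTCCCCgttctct
Rpl22 (chr4:152324421-152324450, plus strand): cgctgCTTCTggaatgttccagctcccact
Rpl41 (chr10:128549154-128549183, minus strand): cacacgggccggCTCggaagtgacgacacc
Rpl39 (chrX:37085208-37085237, minus strand): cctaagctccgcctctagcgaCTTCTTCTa
Rplp2 (chr7:141447636-141447665, plus strand): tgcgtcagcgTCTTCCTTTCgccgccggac
Rpl34 (chr3:130730323-130730352, minus strand): CCTTCCTTTTCCTCTTCCggggacggtgct
Rpl37a (chr1:72711245-72711274, plus strand): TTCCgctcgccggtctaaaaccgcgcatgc
Rpl10 (chrX:74270801-74270830, plus strand): gttgttacagtggaagataggccgCCTata
Rpl31 (chr1:39367836-39367865, plus strand): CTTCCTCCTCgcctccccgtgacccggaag
Rpl24 (chr16:55966260-55966289, plus strand): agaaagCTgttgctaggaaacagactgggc
Rpl19 (chr11:98026909-98026938, plus strand): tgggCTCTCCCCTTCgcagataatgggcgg
Rpl28 (chr7:4792950-4792979, plus strand): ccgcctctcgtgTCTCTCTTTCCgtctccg
Rpl6 (chr5:121204486-121204515, plus strand): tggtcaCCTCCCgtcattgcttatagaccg
Rpl4 (chr9:64173372-64173401, plus strand): TTCCTTTTCCTgtgggagcagccgggtaga
Rpl37 (chr15:5116598-5116627, plus strand): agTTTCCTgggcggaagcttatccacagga
A start was matched for 34 of the 46 members, and a run of at least 8 C or T bases lay in the window of 17 of them (50%), against 13.9% of the 27025 genes with a start in the RefSeq table. Of the 9 members with at least 50% left, 5 had such a run (Rpl38, Rpl39, Rplp2, Rpl34 and Rpl31) and 4 did not (Rpl22, Rpl41, Rpl37a and Rpl10). Of the 4 with the smallest share, Rpl19 and Rpl28 had one and Rpl24 and Rpl6 did not. The 17 members with a run had a median of 12.2% of their GV level at MII in Zar1/2-/- oocytes (2.13 to 74.4%) and the 17 without 15.5% (1.68 to 72.5%). An annotated start can lie some bases away from the start used in oocytes, so the absence of a run says only that these letters are not in this window. A run was counted anywhere in the window. Among the lines shown, the runs of Rpl31, Rpl19 and Rpl4 lie wholly before the annotated start, so a run need not begin the mRNA.

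The targeted transcript Zar1l, the symbol of Zar2, was 533 and 504 FPKM in the WT GV libraries and 20.9 and 19.6 FPKM in the Zar1/2-/- GV libraries. Zar1 mRNA, whose null allele is a small deletion, remained at 136 and 203 FPKM against 439 and 423 at GV. At MII it was higher in Zar1/2-/- oocytes, at 189.6 and 194 against 83.6 and 72.4 FPKM. All 11 oocyte markers were detected in every group, Zp3 for example at a mean of 1770.2 FPKM in WT GV oocytes. The 12 granulosa and cumulus markers summed to between 5.11 and 34.5 FPKM per library. Their sums were 17.2 and 19.6 FPKM in WT GV and 5.11 and 5.499 in WT MII oocytes, 14.8 and 16.8 in Zar1/2-/- GV and 7.26 and 8.47 in Zar1/2-/- MII oocytes. Cyp19a1 (up to 19.0 FPKM in a library) and Nr5a2 (up to 11.5) were the highest of these markers. Ptx3 was at 0 in all 12 libraries and Amh never above 0.0317. The part of these markers in the results was not tested. Immune markers summed to at most 3.21 FPKM, with Cd68 the highest (up to 3.07) and Tyrobp at 0 in all libraries, and theca and stroma markers to at most 0.962. For 39 of the 46 members the values fell on whole fragments (within 0.02 of a fragment), which gave 166 to 16761 fragments per member and library in WT GV, 9 to 2669 in WT MII and 32 to 19193 in Zar1/2-/- MII oocytes. Across the coding sequences of 45 members, a median of 93.2% of all windows of 50 bases had an exact copy elsewhere in mm9, and for 19 members every window did. Ribosomal protein genes have many processed pseudogenes and the authors kept uniquely mapped reads only, so levels compared between members are uncertain. Whether this limit is the same in all libraries for a given member was not tested.

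As a group, the 46 members held a similar share of the library at every stage except in WT MII oocytes. They made up 3.13% of the summed FPKM of a library in WT growing oocytes (3.15 and 3.10%), 3.73% in WT GV oocytes (3.54 and 3.93%) and 0.373% in WT MII oocytes (0.373% in both). In Zar1/2-/- oocytes the shares were 3.37% (3.35 and 3.38%), 4.38% (4.84 and 3.93%) and 3.33% (3.39 and 3.27%). The WT MII libraries stood alone at the bottom, and the Zar1/2-/- MII libraries overlapped the range of the earlier stages. These shares do not depend on the spike-in scaling of the deposited values. In scaled FPKM, the members summed to 19661 ± 1099.9 (SD, n = 2) in WT GV and 465 ± 18.3 in WT MII oocytes, and to 18012 ± 2041 and 6437 ± 950.2 in the Zar1/2-/- oocytes of those stages. The sum at MII was thus 2.37% of the GV sum in WT and 35.7% in Zar1/2-/- oocytes. The size of these falls depends on the spike-in scaling. With it, the median member had 1.21% of its GV mean at MII in WT and 12.7% in Zar1/2-/- oocytes. Without it, the median member had 4.10 and 26.3%.

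**Figure D1:**
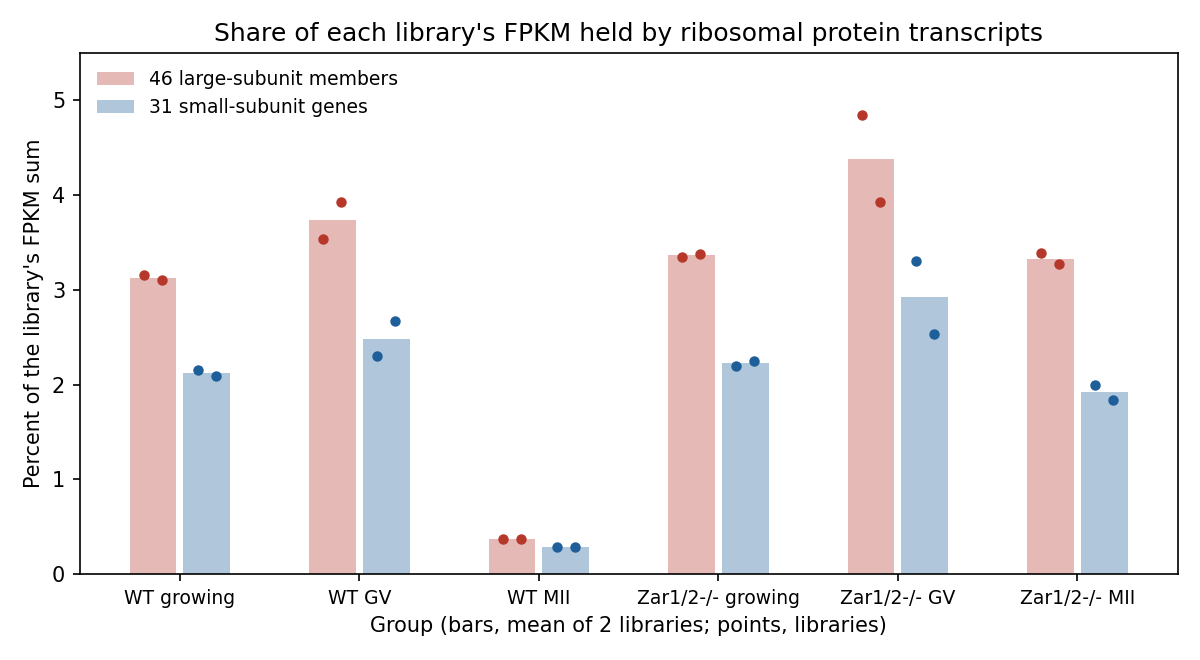
Share of each library's summed FPKM (percent, y axis) held by the 46 large-subunit and the 31 small-subunit ribosomal protein genes in the 6 groups; bars are means of 2 libraries and points are libraries. The large-subunit share is 0.373% in both WT MII libraries and between 3.10 and 4.84% in all others.

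The members were not expressed at 1 level, and their order was kept while the oocyte grew. In WT GV oocytes their mean levels ranged from 21.8 FPKM for Rpl9 to 2211 FPKM for Rpl41, with a median of 296 FPKM, and 39 of the 46 members exceeded 100 FPKM. Across the 46 members, the Spearman rho between levels was 0.987 for WT growing against WT GV oocytes and 0.986 for WT GV against Zar1/2-/- GV oocytes. These are correlations across genes, which are not independent replicates. Rpl41, Rpl39, Rpl35, Rpl17 and Rpl32 were the 5 highest members in WT growing, WT GV and Zar1/2-/- growing oocytes, and in WT GV oocytes they held 35.6% of the members' sum.

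Rpl41 encodes the smallest ribosomal protein, a short basic helix at the interface of the subunits. It was 2019 and 2186 FPKM (growing), 2212 and 2209 (GV) and 26.5 and 39.7 (MII) in WT libraries, and 2049 and 1870.4, then 2398 and 1866, then 1622 and 1443 FPKM in the Zar1/2-/- libraries of the same stages. It was the highest member in every group except WT MII, where it stood below Rpl37, Rplp2 and Rpl32. Rpl39, which lines the tunnel through which the new polypeptide leaves, was measured at 1893 and 1575 FPKM in growing, 1925 and 1618 in GV and 3.68 and 3.74 in MII oocytes of WT females, and at 1693 and 1314, 1810.2 and 1397, and 1238 and 955 FPKM, respectively, in those of Zar1/2-/- females. Only its WT MII libraries were low, far under the other 10. Rpl35, at the rim of that tunnel, was 1365 and 1302 FPKM (growing), 1396 and 1246 (GV) and 7.94 and 7.33 (MII) in WT libraries, and 1179 and 1088, then 1306 and 1122, then 479 and 341 FPKM in the Zar1/2-/- libraries of the same stages. Rpl17, in the tunnel wall, was 939 and 891 FPKM (growing), 951 and 799 (GV) and 24.9 and 29.6 (MII) in WT libraries, and 826 and 695, then 787 and 757, then 36.4 and 29.7 FPKM in the Zar1/2-/- libraries of the same stages. Rpl32 was 816 and 838 FPKM (growing), 848 and 805 (GV) and 49.2 and 36.6 (MII) in WT libraries, and 739 and 669, then 825 and 644, then 262 and 226 FPKM in the Zar1/2-/- libraries of the same stages. Rpl17 was low at MII in both genotypes, whereas Rpl35 and Rpl32 were lowest in WT MII and intermediate in Zar1/2-/- MII oocytes.

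At the other end of the order, Rpl9 was measured at 49.5 and 48.2 FPKM in growing, 23.5 and 20.1 in GV and 0.630 and 0.532 in MII oocytes of WT females, and at 76.2 and 67.5, 34.3 and 28.9, and 1.56 and 1.41 FPKM, respectively, in those of Zar1/2-/- females. Rpl22, which is not needed for viability in mice and has the paralog Rpl22l1, was 36.2 and 33.9 FPKM in WT growing, 30.7 and 29.1 in WT GV and 3.68 and 3.03 in WT MII oocytes, against 24.5 and 21.1 (growing), 23.1 and 19.5 (GV) and 17.0 and 13.9 FPKM (MII) in Zar1/2-/- oocytes. Both were low at every stage, and Rpl22 at MII in Zar1/2-/- oocytes lay close to its GV values. Rpl30 was measured at 45.6 and 50.8 FPKM in growing, 79.3 and 67.7 in GV and 3.67e-05 and 0.177 in MII oocytes of WT females, and at 49.96 and 49.6, 50.5 and 41.6, and 9.19 and 4.66 FPKM, respectively, in those of Zar1/2-/- females, so that 1 WT MII library listed it close to 0 and no fold is given against that group. Rpl27a was 90.0 and 102 FPKM in WT growing, 85.5 and 82.8 in WT GV and 2.24 and 2.00 in WT MII oocytes, against 83.2 and 82.3 (growing), 67.8 and 62.2 (GV) and 18.6 and 13.8 FPKM (MII) in Zar1/2-/- oocytes. Rpl3, which reaches towards the peptidyl transferase centre, was measured at 119 and 114 FPKM in growing, 97.6 and 76.0 in GV and 0.416 and 0.314 in MII oocytes of WT females, and at 119.7 and 110.2, 80.7 and 88.7, and 1.23 and 1.02 FPKM, respectively, in those of Zar1/2-/- females. Rpl3 was the lowest member in Zar1/2-/- MII oocytes, with 56 and 64 fragments behind its values.

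**Figure D2:**
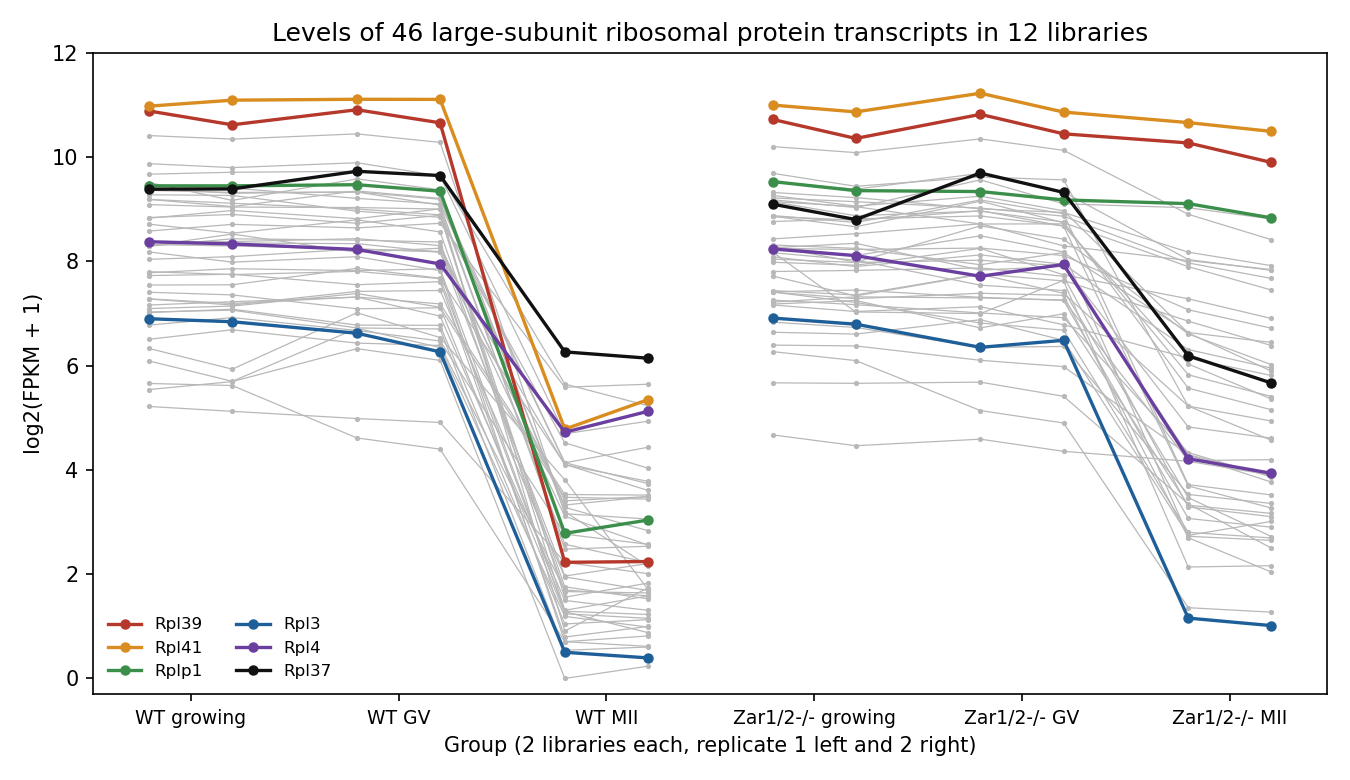
Levels of the 46 members as log2(FPKM + 1) (y axis) in the 12 libraries, grouped by genotype and stage (x axis); grey lines are members, lines join the libraries of a genotype, and 6 members are coloured. All members drop in WT MII libraries, whereas Rpl41, Rpl39 and Rplp1 stay near their GV levels in Zar1/2-/- MII libraries.

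The first comparison asks whether these transcripts change as WT oocytes complete growth. Few were called. Tested with limma on log2(FPKM + 1) and called at an adjusted p under 0.05, 1 member was higher in GV than in growing WT oocytes, 1 was lower and 44 were not called, where 2.77% of the 11502 genes tested were higher and 28.7% lower. The median difference of the members was -0.04 on the log2 scale, beside -0.29 for all genes tested. Both GV libraries lay above both growing libraries for 9 members and below them for 16, beside 10.2% and 59.5% of all genes. Rpl9 was the lower member, at a log2 difference of -1.13 ± 0.14 (SE, adjusted p = 8.44e-04). Rpl26, a tunnel-rim protein that also binds p53 mRNA, was the higher, with 67.2 and 51.0 FPKM (growing), 104 and 80.5 (GV) and 1.28 and 0.979 (MII) in WT libraries, and 98.9 and 96.5, then 117 and 88.8, then 5.70 and 7.08 FPKM in the Zar1/2-/- libraries of the same stages. Its difference was 0.64 ± 0.20 (adjusted p = 0.034), and the call was lost on leaving out WT growing replicate 2 (0.44), WT GV replicate 1 (0.45) or WT GV replicate 2 (0.82).

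Other members near the ends of this comparison were not called. Rpl7a was 620.3 and 615 FPKM (growing), 499 and 459.7 (GV) and 21.96 and 15.4 (MII) in WT libraries, and 567 and 529, then 420.4 and 421, then 55.7 and 41.5 FPKM in the Zar1/2-/- libraries of the same stages. Rpl12, at the base of the stalk, was measured at 129.8 and 133 FPKM in growing, 105 and 103 in GV and 0.454 and 0.519 in MII oocytes of WT females, and at 169.7 and 147, 112 and 102, and 5.98 and 5.47 FPKM, respectively, in those of Zar1/2-/- females. Rpl29 was 169 and 163 FPKM (growing), 135 and 137 (GV) and 10.1 and 9.86 (MII) in WT libraries, and 152 and 143, then 128 and 120.3, then 19.2 and 13.6 FPKM in the Zar1/2-/- libraries of the same stages. These 3 members and Rpl3 had growing values above the GV values in WT oocytes, with differences between -0.43 and -0.28, none past the threshold. Rpl21 was measured at 186 and 187 FPKM in growing, 233 and 204 in GV and 1.44 and 1.34 in MII oocytes of WT females, and at 173 and 163, 216 and 197, and 3.40 and 3.48 FPKM, respectively, in those of Zar1/2-/- females. Rpl34 was 79.5 and 60.2 FPKM in WT growing, 128 and 92.1 in WT GV and 13.0 and 2.27 in WT MII oocytes, against 289.6 and 129.9 (growing), 127 and 198 (GV) and 115 and 82.7 FPKM (MII) in Zar1/2-/- oocytes. Rpl34 had the largest relative spread between replicates of any member in WT growing, WT GV, Zar1/2-/- growing and Zar1/2-/- GV oocytes, and an SE of 0.57 in every pairwise comparison.

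The second comparison asks what the loss of ZAR1 and ZAR2 does to these transcripts before maturation. In growing oocytes 2 members were called higher in Zar1/2-/-, 1 lower and 43 not called, against 10.6% higher and 24.4% lower among all genes tested, and the median difference was -0.11 beside -0.16 for all genes. Both Zar1/2-/- growing libraries lay above both WT libraries for 8 members and below them for 23, beside 22.4% and 47.4% of all genes. In GV oocytes 1 member was higher, 3 were lower and 42 were not called, against 2.83% and 40.6%, with a median of -0.15 beside -0.38. The libraries were separated upwards for 2 members (Rpl6 and Rpl9) and downwards for 20, beside 6.79% and 63.6% of all genes. Rpl9 was higher in the Zar1/2-/- oocytes at both stages, by 0.54 ± 0.14 in growing (adjusted p = 0.0137) and 0.51 ± 0.14 in GV oocytes (adjusted p = 0.0151). Rpl22 was lower at both, by -0.60 ± 0.16 (adjusted p = 0.0127) and -0.47 ± 0.16 (adjusted p = 0.0314). Rpl26 was higher in growing oocytes only (0.73 ± 0.20, adjusted p = 0.0162; 0.15 in GV, not called), a contrast between stages that was not tested. The largest difference in growing oocytes was that of Rpl34, at 1.48, which was not called. Rpl34 was called higher there without the spike-in factors, with the replicate number as a block or with only the groups compared.

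Rpl30 (-0.67 ± 0.24, adjusted p = 0.0417) and Rpl14 (-0.40 ± 0.14, adjusted p = 0.0428) were the other calls, both lower in Zar1/2-/- GV oocytes. Rpl14 was 328 and 333 FPKM (growing), 346 and 315 (GV) and 9.04 and 10.2 (MII) in WT libraries, and 263 and 252, then 259 and 240.4, then 27.4 and 23.4 FPKM in the Zar1/2-/- libraries of the same stages. Its 2 Zar1/2-/- GV libraries lay below both WT GV libraries, and so did its growing libraries. All 4 calls at GV were lost when the GV libraries were fitted alone, and those of Rpl30 and Rpl14 on leaving out 10 and 8 of the 12 libraries in turn, with differences between -0.80 and -0.53 and between -0.47 and -0.34. Rpl30 kept its call only without either Zar1/2-/- MII library, and Rpl14 only without any 1 of the 4 MII libraries. Rpl22 at GV lost it without WT GV replicate 1 (-0.44), WT GV replicate 2 (-0.51) or Zar1/2-/- GV replicate 2 (-0.36), and Rpl9 without WT GV replicate 2 (0.41) or Zar1/2-/- GV replicate 1 (0.39). In growing oocytes Rpl22 lost it without WT replicate 1 (-0.56) or Zar1/2-/- replicate 2 (-0.50), Rpl26 without WT replicate 2 (0.53) or either Zar1/2-/- library (0.71 and 0.75), and Rpl9 without either WT library (0.56 and 0.53) or Zar1/2-/- replicate 1 (0.46).

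The scaling also decides the sign of these small differences. Without the spike-in factors the median difference of the members between genotypes became 0.18 in growing and 0.30 in GV oocytes, and that of all genes 0.08 and -0.03. The median of the members lay above that of all genes at both stages with either scaling. Rpl9 remained higher at both stages without scaling, and Rpl22 was then not called at either.

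Among the members that were furthest apart between genotypes before MII without being called, Rpl36a was 419 and 372 FPKM in WT growing, 445 and 378 in WT GV and 2.38 and 1.88 in WT MII oocytes, against 312 and 253 (growing), 410.0 and 344 (GV) and 96.7 and 63.9 FPKM (MII) in Zar1/2-/- oocytes. Rpl35a was measured at 584 and 530.4 FPKM in growing, 653 and 591 in GV and 8.73 and 6.14 in MII oocytes of WT females, and at 466 and 405, 569.5 and 428, and 238 and 174 FPKM, respectively, in those of Zar1/2-/- females. Rpl37 was 668 and 671 FPKM in WT growing, 848 and 802 in WT GV and 75.9 and 69.7 in WT MII oocytes, against 548 and 446 (growing), 829 and 641 (GV) and 72.0 and 49.9 FPKM (MII) in Zar1/2-/- oocytes. In growing oocytes all 3 had lower values in both Zar1/2-/- libraries. Rpl23, which carries the docking site of the assembly factor eIF6, was 154 and 142 FPKM (growing), 171 and 173 (GV) and 2.86 and 2.22 (MII) in WT libraries, and 209.9 and 161, then 215 and 167, then 36.4 and 22.8 FPKM in the Zar1/2-/- libraries of the same stages. Rpl23a, where factors that receive the new polypeptide dock, was measured at 584 and 554 FPKM in growing, 514 and 475 in GV and 1.48 and 2.00 in MII oocytes of WT females, and at 616 and 533, 609 and 502, and 97.9 and 58.6 FPKM, respectively, in those of Zar1/2-/- females. Rpl37a was 223 and 214 FPKM (growing), 223 and 203 (GV) and 16.2 and 11.2 (MII) in WT libraries, and 252 and 243, then 304 and 213, then 155 and 119 FPKM in the Zar1/2-/- libraries of the same stages. Rpl23 and Rpl37a were higher in both Zar1/2-/- growing libraries, and the GV libraries of Rpl23, Rpl23a and Rpl37a overlapped between genotypes.

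Rpl6 was measured at 155 and 145 FPKM in growing, 159 and 123 in GV and 1.82 and 1.47 in MII oocytes of WT females, and at 169 and 155, 167 and 162, and 5.497 and 3.12 FPKM, respectively, in those of Zar1/2-/- females. Rpl7 was 289.6 and 253 FPKM in WT growing, 272 and 226 in WT GV and 0.630 and 0.759 in WT MII oocytes, against 287 and 259.6 (growing), 186 and 173 (GV) and 10.1 and 5.60 FPKM (MII) in Zar1/2-/- oocytes. The 2 members moved in opposite directions at GV, Rpl6 by 0.24 and Rpl7 by -0.46, neither of them called.

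**Figure D3:**
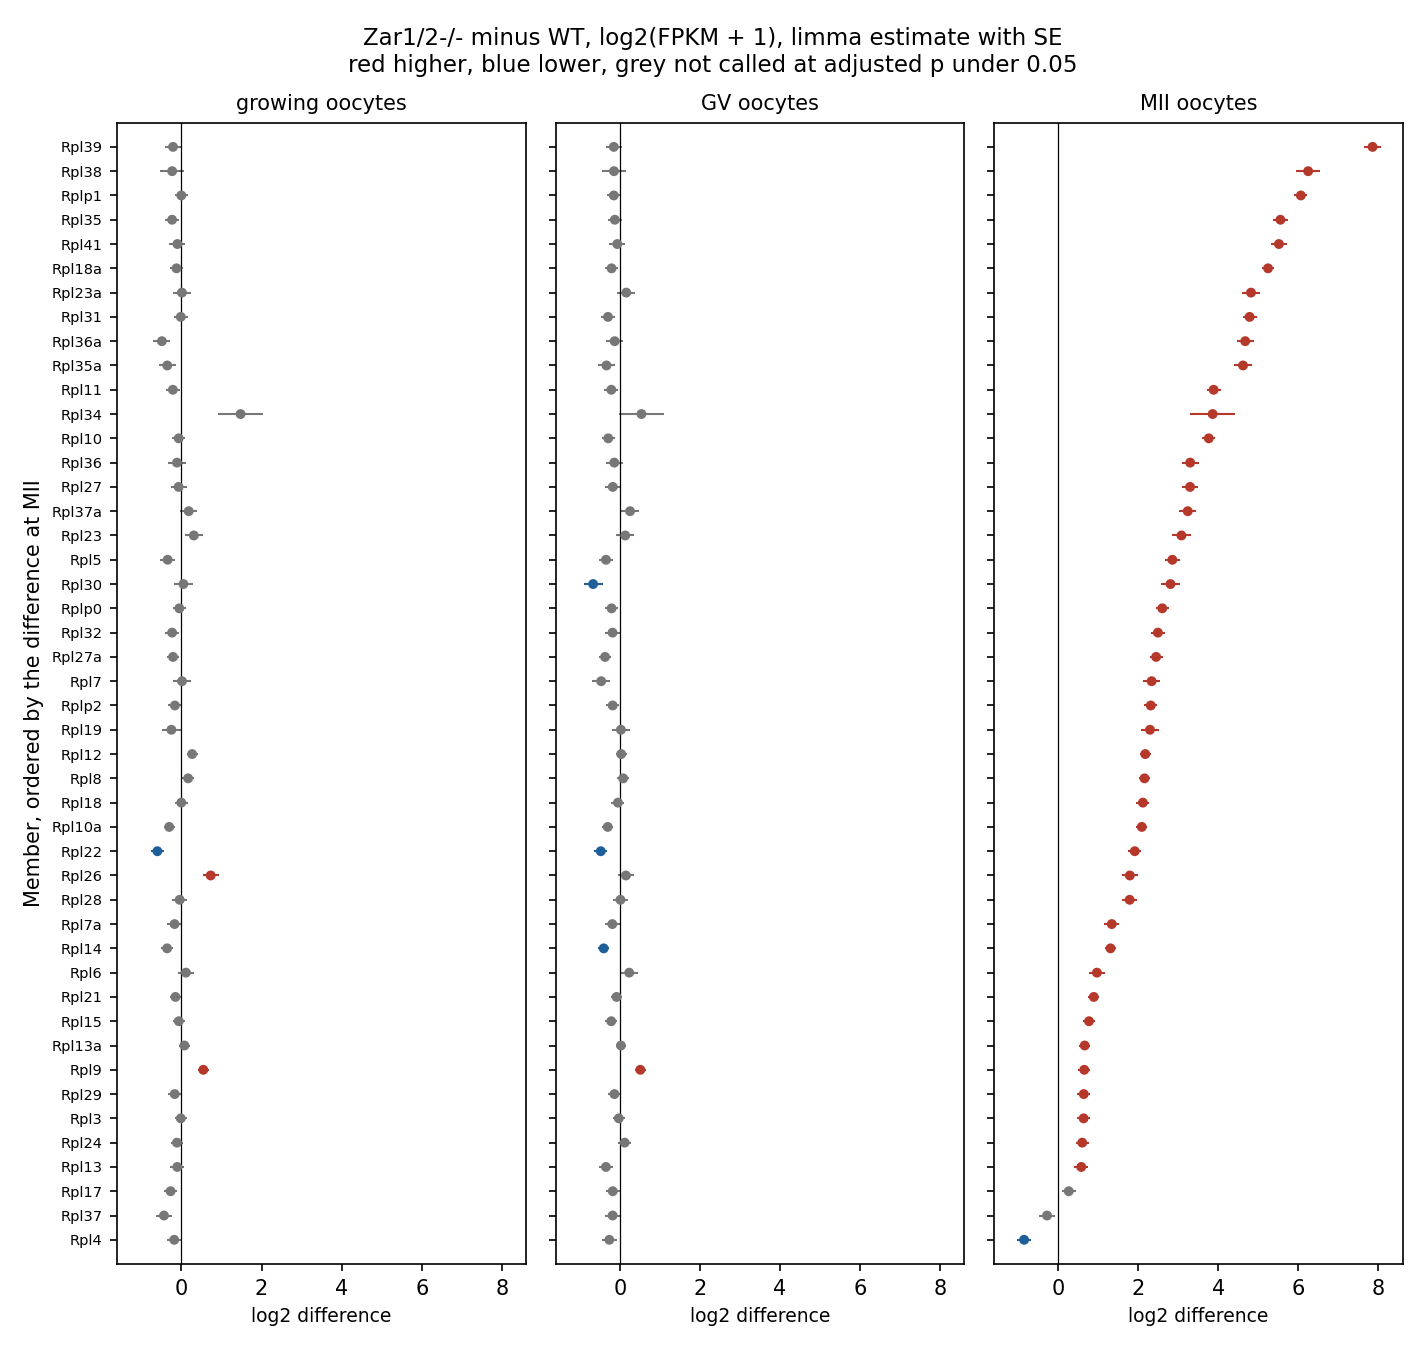
Difference between Zar1/2-/- and WT oocytes for each member on the log2(FPKM + 1) scale (x axis, limma estimate with its SE) in growing, GV and MII oocytes, with members ordered by the difference at MII (y axis). Differences run from -0.60 to 1.48 (Rpl34, not called) in growing and from -0.67 to 0.54 in GV oocytes. Those at MII spread from -0.85 for Rpl4 to 7.85 for Rpl39.

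The third comparison follows the members through maturation in WT oocytes. All 46 were lower in MII than in GV oocytes, as were 93.4% of all genes tested, and by limma 0 were higher at an adjusted or an unadjusted p under 0.05, beside 0.104% of all genes. Being lower was shared with most genes, and the members' median difference was -5.71 beside -1.28 for all genes tested. Both MII libraries lay below both GV libraries for all 46, beside 97.1% of all genes. By group means with a floor of 1 FPKM, 43 of the 46 members (93.5%) fell more than 10-fold, beside 15.7% of all genes tested. With this floor a gene at 10 FPKM or less in GV oocytes cannot fall that far. The lowest member averaged 21.8 FPKM there, whereas only 5966 of the 11502 genes tested averaged at least 5 FPKM over all libraries. On the tested scale, too, a gene at a low level can fall only a little. These shares and the medians above therefore do not compare members with genes of like level. The MII mean was 1.21% of the GV mean at the median member, and 19 members had under 1% left. At MII 6 members averaged under 1 FPKM, and the order of the members at GV carried over in part, with a Spearman rho of 0.57 across them.

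Rpl39 lost most on the tested scale, at -8.55 ± 0.20 (adjusted p = 7.99e-11), and its MII mean was 0.209% of the GV mean. Rpl19, which forms a bridge between the subunits, was 544 and 527 FPKM in WT growing, 523 and 513 in WT GV and 0.879 and 2.34 in WT MII oocytes, against 471 and 429 (growing), 579 and 483 (GV) and 12.2 and 10.5 FPKM (MII) in Zar1/2-/- oocytes, a difference of -7.70 ± 0.23. Rpl23a (-7.51), Rpl35 (-7.26) and Rpl7 (-7.20) followed. Least was lost by Rpl22 (-2.83, 11.2% left), Rplp2 (-3.07, 11.7%), Rpl4 (-3.17, 10.9%), Rpl37 (-3.48, 8.83%) and Rpl29 (-3.64, 7.33%). Rpl22, Rplp2 and Rpl4 were the 3 members that fell less than 10-fold. Behind the WT MII values of Rpl39 stood 32 and 41 fragments, with exact 95% Poisson intervals of 21.9 to 45.2 and 29.4 to 55.6 that cover counting error only, so the low level was measured and not a missing value.

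The same step in Zar1/2-/- oocytes split the members apart. Of the 46, 42 were called lower in MII than in GV oocytes and 4 were not called (Rpl34, Rpl41, Rpl38 and Rplp1), while 68.7% of all genes tested were lower. Both MII libraries nevertheless lay below both GV libraries for all 46, beside 84.6% of all genes. By limma 0 members were higher at an adjusted or an unadjusted p under 0.05, beside 0.209% of all genes. The median difference was -2.89 beside -0.72 for all genes, those of low level included. With the same floor, 18 members (39.1%) fell more than 10-fold beside 6.66% of all genes, which again include genes too low to do so. The share left at MII ran from 1.33% for Rpl3 to 82.1% for Rplp1, a 61.8-fold range with a median of 12.7%. In all, 10 members had at least 50% left: Rplp1, Rpl38, Rpl22, Rpl41, Rpl39, Rplp2, Rpl34, Rpl37a, Rpl10 and Rpl31. A higher share was left in Zar1/2-/- than in WT oocytes for 44 of the 46, the exceptions being Rpl4 and Rpl37. The shares left in the 2 genotypes were only weakly related, with a Spearman rho of 0.29 across members.

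Without the spike-in factors, the WT MII means were still below the GV means for all 46 members, but the 10 members with at least 50% left in Zar1/2-/- oocytes then stood above their GV means, Rplp1 at 170.1%, Rpl38 at 153% and Rpl39 at 141%. For these members the direction of the change between GV and MII in Zar1/2-/- oocytes thus depends on the scaling, and 5 of the 46 were then called higher. The calls of Rpl39, Rpl22 and Rplp2 as lower were also lost on leaving out Zar1/2-/- GV replicate 1 (-0.36, -0.32 and -0.37) or Zar1/2-/- MII replicate 2 (-0.36, -0.31 and -0.49).

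Of the stalk proteins, which recruit the elongation factors, Rplp1 and Rplp2 were among the best kept. Rplp0, the base of the stalk, was 319 and 326 FPKM in WT growing, 324 and 288 in WT GV and 16.1 and 12.8 in WT MII oocytes, against 318 and 304 (growing), 244 and 287 (GV) and 98.5 and 86.3 FPKM (MII) in Zar1/2-/- oocytes. Rplp1 was 699 and 699 FPKM (growing), 709.7 and 651 (GV) and 5.89 and 7.22 (MII) in WT libraries, and 739.9 and 656, then 648 and 579, then 551 and 456 FPKM in the Zar1/2-/- libraries of the same stages. Rplp2 was measured at 383 and 419 FPKM in growing, 399 and 424 in GV and 47.1 and 49.0 in MII oocytes of WT females, and at 345 and 369.5, 421 and 314, and 258 and 229 FPKM, respectively, in those of Zar1/2-/- females. In Zar1/2-/- oocytes 34.8% of Rplp0, 82.1% of Rplp1 and 66.2% of Rplp2 were left at MII, against 4.72, 0.963 and 11.7% in WT oocytes. Rplp1 and Rplp2 form dimers in the stalk, and while both kept most of their GV level without ZAR1 and ZAR2, only Rplp2 was among the best kept members in WT oocytes. Rpl38, whose loss in mice disturbs the translation of Hox mRNAs, was 730.3 and 576 FPKM (growing), 767 and 663 (GV) and 8.20 and 3.46 (MII) in WT libraries, and 581 and 524, then 757 and 550.0, then 522 and 449.6 FPKM in the Zar1/2-/- libraries of the same stages, with 74.4% left in Zar1/2-/- and 0.815% in WT oocytes.

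The most depleted members in Zar1/2-/- oocytes were Rpl24, Rpl21, Rpl19, Rpl28 and Rpl3 on the tested scale, with differences between -5.65 and -5.33. Rpl24, which bridges the subunits, was measured at 319.8 and 314 FPKM in growing, 301 and 291 in GV and 2.90 and 3.61 in MII oocytes of WT females, and at 309.9 and 276, 359 and 289.6, and 5.62 and 5.27 FPKM, respectively, in those of Zar1/2-/- females. Rpl28 was 458 and 478 FPKM in WT growing, 425 and 472 in WT GV and 1.95 and 2.55 in WT MII oocytes, against 465 and 442 (growing), 501 and 409 (GV) and 11.9 and 8.64 FPKM (MII) in Zar1/2-/- oocytes. Their MII libraries lay at 1.68 and 2.26% of the GV means without ZAR1 and ZAR2, and at 1.10 and 0.502% in WT oocytes. Rpl21 and Rpl3 had 1.67 and 1.33% left against 0.638 and 0.421% in WT oocytes, and Rpl19 2.13 against 0.310%. The smallest fall among these 5 was the 44.2-fold fall of Rpl28 in Zar1/2-/- oocytes, so all of them were strongly depleted in both genotypes.

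**Figure D4:**
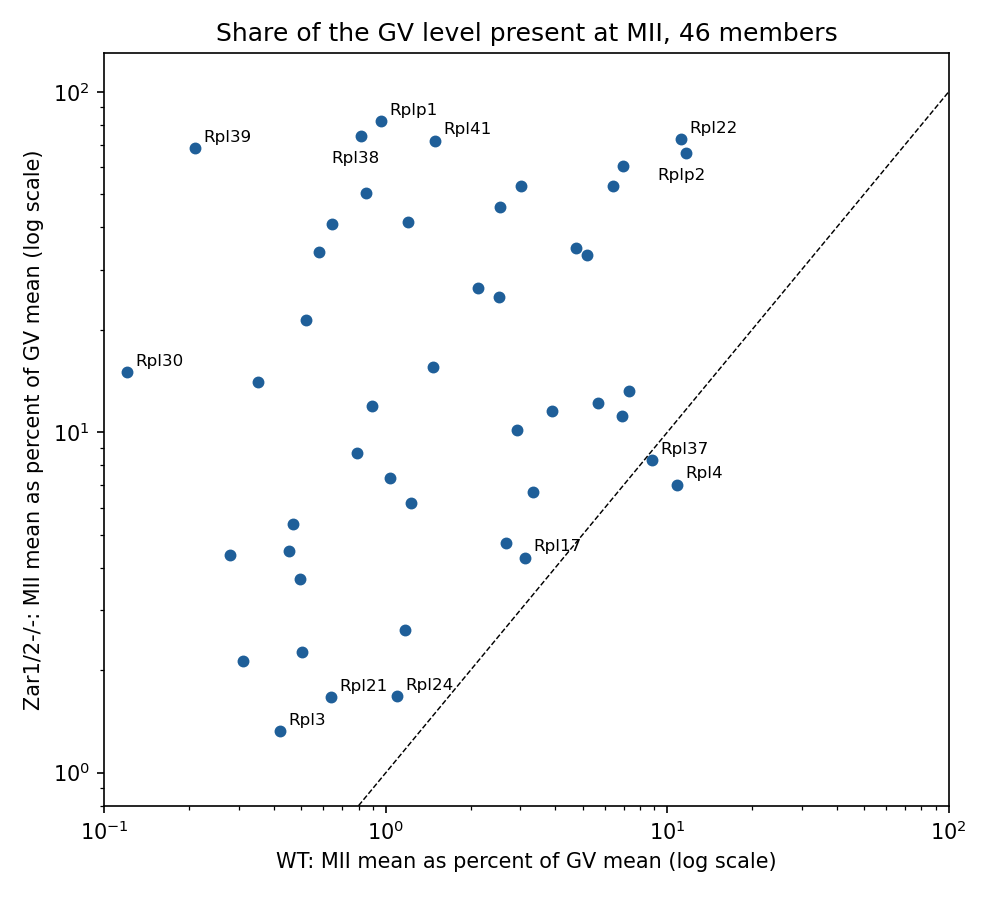
MII mean as percent of the GV mean for the 46 members in WT (x axis) and Zar1/2-/- oocytes (y axis), both on log scales; the dashed line marks equal shares. Rpl4 and Rpl37 lie under the line and the other 44 members above it, Rpl39 farthest from it.

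Compared directly at MII, 43 members were higher in Zar1/2-/- than in WT oocytes, 1 was lower and 2 were not called, whereas 21.5% of all genes tested were higher and 10.3% lower. The median difference was 2.33 on the log2 scale beside 0.06 for all genes, and the means differed 7.59-fold at the median member. As before, the median of all genes takes in genes of lower level. Both Zar1/2-/- libraries lay above both WT libraries for 44 members, a pattern shown by 43.5% of all genes tested. Without the spike-in factors the Zar1/2-/- mean was still above the WT mean for 44 members. Among all genes the factors changed the split, from 2831 higher and 2694 lower without them to 2472 and 1183 with them, whereas 42 members were called higher without them. Leaving out Zar1/2-/- MII replicate 1 removed the calls of Rpl13 (0.32), Rpl29 (0.41), Rpl24 (0.56) and Rpl3 (0.57), so that 39 remained. Rpl13 also lost its call without WT MII replicate 1 (0.54) or 2 (0.62), Rpl24 without WT MII replicate 1 (0.48), and Rpl29 (0.62) and Rpl3 (0.58) without WT MII replicate 2.

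The 5 largest differences were those of Rpl39 (7.85 ± 0.20, adjusted p = 9.75e-10), Rpl38 (6.24 ± 0.29, adjusted p = 2.61e-08), Rplp1 (6.06 ± 0.16, adjusted p = 9.82e-10), Rpl35 (5.55 ± 0.18, adjusted p = 1.66e-09) and Rpl41 (5.51 ± 0.20, adjusted p = 3.90e-09). As ratios of means, Rpl38 was 83.3-fold, Rplp1 76.9-fold, Rpl35 53.6-fold and Rpl41 46.3-fold higher in Zar1/2-/- MII oocytes. Rpl39 and Rpl41 together held 20.3% of the members' sum in WT GV oocytes, 7.92% in WT MII oocytes and 40.8% in Zar1/2-/- MII oocytes. Of the members that bind 5S ribosomal RNA, Rpl5 was 8.64-fold and Rpl11 15.7-fold higher, with 8.71 and 45.98% of the GV level left. Rpl10, which joins the subunit at a late step in the cytoplasm, was 14.2-fold higher with 52.7% left.

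At the small end of the comparison stood Rpl4, Rpl37, Rpl17, Rpl13 and Rpl24. Rpl4, a long protein of the tunnel wall, was 332 and 322 FPKM in WT growing, 299 and 247 in WT GV and 25.4 and 33.9 in WT MII oocytes, against 301 and 276 (growing), 209 and 245 (GV) and 17.6 and 14.3 FPKM (MII) in Zar1/2-/- oocytes. Its Zar1/2-/- MII libraries lay below both WT MII libraries, at -0.85 ± 0.18 (adjusted p = 0.00403), the reverse of the other called members. The call remained on leaving out each library in turn and without the spike-in factors. The fragments behind these values were 1415 and 2383 in WT and 842 and 946 in Zar1/2-/- MII oocytes. Rpl37 overlapped between genotypes at MII (-0.28 ± 0.20, adjusted p = 0.352) and was the highest member in WT MII oocytes. Without the spike-in factors Rpl37 was called lower in Zar1/2-/- MII oocytes.

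Rpl17 was not called either (0.27 ± 0.17, adjusted p = 0.281). Rpl13 was 314 and 368 FPKM in WT growing, 289 and 304 in WT GV and 9.61 and 10.2 in WT MII oocytes, against 307 and 325 (growing), 227 and 239 (GV) and 18.5 and 12.6 FPKM (MII) in Zar1/2-/- oocytes, a difference of 0.58 ± 0.18 (adjusted p = 0.028). Rpl37 and Rpl37a encode different zinc-binding proteins despite their names, and they differed in call: Rpl37a was higher in Zar1/2-/- MII oocytes by 3.24 ± 0.22 (adjusted p = 4.55e-07), with 53.0% of its GV level left against 8.29% for Rpl37, although in WT oocytes 6.44 and 8.83% were left.

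Whether the change from GV to MII itself differed between genotypes was tested with an interaction term. It was more positive in Zar1/2-/- oocytes for 40 members, beside 33.9% of all genes tested, and by limma more negative for 0 members at the adjusted and 1 at an unadjusted p under 0.05, beside 0.643% of all genes. The 6 members not called were Rpl4, Rpl37, Rpl9, Rpl17, Rpl24 and Rpl6. The median of the members was 2.58 beside 0.48 for all genes, which again include genes of lower level. Rpl9, with 0.14 ± 0.20, was called higher in Zar1/2-/- oocytes at each of the 3 stages. Rpl3 (0.66 ± 0.22, adjusted p = 0.0365) lost its call on leaving out any of 8 libraries, namely either WT growing, either WT MII or either Zar1/2-/- MII library, WT GV replicate 1 or Zar1/2-/- GV replicate 1, with differences between 0.48 and 0.73. Rpl13a (0.57 to 0.64) lost it without WT GV replicate 1, WT MII replicate 1 or either Zar1/2-/- MII library, and Rpl29 (0.54 to 0.79) without WT GV replicate 1, either WT MII library or Zar1/2-/- MII replicate 1. Rpl13 lost it without replicate 1 of WT MII (0.88) or of Zar1/2-/- MII (0.66), and Rpl34 without WT GV replicate 1 (3.08). Without the spike-in factors Rpl13a (-0.01), Rpl29 (0.13), Rpl13 (0.27) and Rpl15 (0.38) were not called, so that 36 remained. With libraries scaled to their medians Rpl21 (0.53) and Rpl3 (0.55) were lost as well.

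The share left at MII was set beside the length of the coding sequence. Across the 45 members with a coding sequence in the mm9 annotation (Rpl41 had none there), the Spearman rho between coding length and the share left was -0.57 in Zar1/2-/- and 0.02 in WT oocytes, a difference between genotypes that was not tested. The 15 shortest coding sequences (156 to 408 bases) had a median of 50.3% left in Zar1/2-/- oocytes (8.29 to 82.1%), and the 15 longest (591 to 1260 bases) 7.33% (1.33 to 52.7%). In WT oocytes the medians were 0.963 and 2.91%. Rpl39, with 156 bases (mm9 chrX:34622515-34625397), Rpl38, with 213 bases (chr11:114529838-114533645), and Rplp1, with 345 bases (chr9:61761091-61762345), lay at the short and well-kept end. Rpl3, with 1212 bases (chr15:79908211-79913836), and Rpl4, with 1260 bases (chr9:64021194-64026369), lay at the other. Rpl37 (294 bases) was short and poorly kept, whereas Rplp0 (954 bases) and Rpl10 (645 bases) were long and had 34.8 and 52.7% left. The share of coding windows with a copy elsewhere had a rho of -0.29 with the share left in Zar1/2-/- and -0.39 in WT oocytes, and the GV level in Zar1/2-/- oocytes one of 0.28. These are descriptions across genes that share the same libraries.

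**Figure D5:**
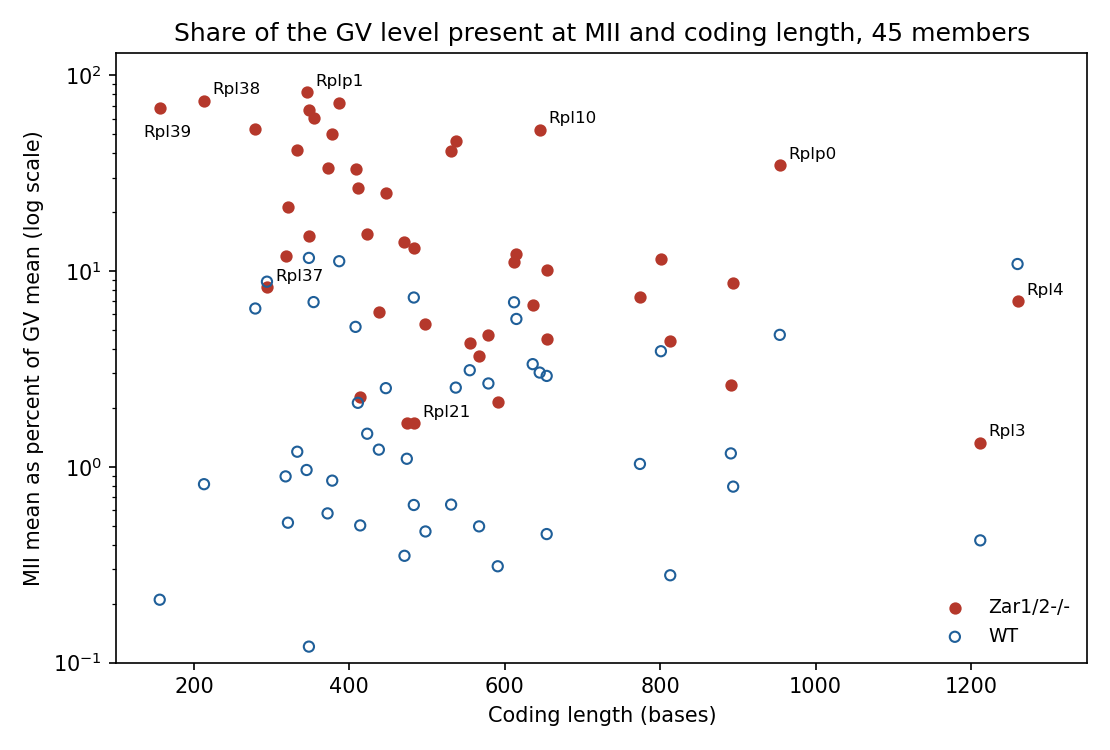
MII mean as percent of the GV mean (log scale, y axis) against coding length in bases (x axis) for 45 members; filled points are Zar1/2-/- and open points WT oocytes. In Zar1/2-/- oocytes the 15 shortest have a median of 50.3% left and the 15 longest 7.33%.

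Other ribosome genes were examined from lists. Of the 31 small-subunit genes, 28 were higher in Zar1/2-/- than in WT MII oocytes, 0 lower and 3 not called, beside 21.5% higher and 10.3% lower among all genes tested, with a median of 2.21. Their share of the library fell from 2.30 and 2.67% at GV to 0.284 and 0.285% at MII in WT oocytes while the Zar1/2-/- MII libraries held 2.00 and 1.84%. All 31 were lower in WT MII than in WT GV oocytes, as were 93.4% of all genes, with a median of -5.70 beside -1.28 for all genes, those of low level included. Of the paralogs, Rpl22l1 was 101 and 82.5 FPKM (growing), 127 and 93.7 (GV) and 0.481 and 0.444 (MII) in WT libraries, and 79.9 and 58.3, then 92.7 and 78.6, then 56.3 and 37.9 FPKM in the Zar1/2-/- libraries of the same stages. Rpl36al, whose protein is nearly identical to that of Rpl36a, so that reads of the 2 genes could be confused, was 586 and 535 FPKM in WT growing, 786 and 716 in WT GV and 4.27 and 3.38 in WT MII oocytes, against 569.8 and 486 (growing), 902 and 673 (GV) and 11.8 and 7.18 FPKM (MII) in Zar1/2-/- oocytes. Rpl22l1 stayed nearer its GV values in Zar1/2-/- MII oocytes, whereas Rpl36al, with 1.20% left, was depleted in both genotypes and Rpl36a had 21.3% left.

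The factors that assemble and export the large subunit were taken from a further list. Of 37 tested, 1 was higher in Zar1/2-/- than in WT MII oocytes (Eif6, 1.27 ± 0.20, adjusted p = 5.71e-04), 5 were lower (Rrs1, Rpf1, Sbds, Noc3l and Nsa2) and 31 were not called. This stood against 21.5% higher and 10.3% lower among all genes tested, with a median of -0.15 beside 0.06 for all genes. In WT oocytes 35 of the 37 were lower at MII than at GV, as were 93.4% of all genes, with a median of -1.61, against -5.71 for the 46 members and -1.28 for all genes. In WT GV oocytes the 37 ran from a mean of 0.308 FPKM for Zfp622 to 217 FPKM for Pak1ip1, whereas the lowest member averaged 21.8 FPKM. On the tested scale a gene at a low level can fall only a little. These medians therefore do not compare genes of like level.

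Over the 12 libraries, the genes whose log2(FPKM + 1) followed Rpl39 most closely among all genes tested were Mrpl33, a protein of the mitochondrial ribosome, Trappc2l, of a vesicle tethering complex, Atp5j, of the mitochondrial ATP synthase, the small-subunit gene Rps29 and the stalk gene Rplp1, all at a Pearson r of 0.999. Mrpl33 averaged 171 FPKM in WT GV, 0.291 in WT MII and 106 in Zar1/2-/- MII oocytes. Trappc2l averaged 113, 0.499 and 75.1 FPKM and Atp5j 133, 0.4996 and 83.4 FPKM in the same groups. Each of the 5 was low in WT MII oocytes only, so the r rests on 2 of the 12 libraries being far from the other 10.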

How the data were processed

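Oocytes of WT and Zar1/2-/- mice at the growing, GV and MII stages were sequenced by Smart-seq2 with ERCC spike-in RNA, in 12 libraries of 10 oocytes. Groups and replicates were taken from the sample labels. The growing females are 13.5 days old in the labels, and the study's methods give another age. The authors trimmed reads to 50 bases, mapped them to mm9 with TopHat2 2.1.1 (version per the labels), kept uniquely mapped reads and computed expression on UCSC gene models with Cufflinks 2.2.1. The values deposited by the authors are FPKM multiplied by the ratio of the spike-in share in WT growing oocytes to that in the library, and the factors recovered from the table ran from 0.225 to 1. Both WT growing libraries had a factor of 1, although the study lists different spike-in shares for them. The WT GV factors were 0.836 and 0.697, although the study lists equal shares there. Each library thus appears to be scaled to the WT growing library of the same replicate number. The table holds no counts. Whole fragments were recovered for 39 of 46 members and used only for depth and exact Poisson intervals, which cover counting error alone. Relative depth ran from 0.914 to 1.24 of WT growing replicate 1.

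The test kept the 11502 of 23230 genes that reached 1 FPKM in any library. All 12 libraries entered 1 limma model (limma 3.58.1, R 4.3.3) of log2(FPKM + 1), with a coefficient for each group, eBayes with an intensity trend and Benjamini-Hochberg adjustment over all genes tested, and a gene was called at an adjusted p under 0.05. A difference on this scale understates the change of low genes. The fit was tested on simulated data. Members and lists were chosen with earlier results of these data known. Genes named are the 5 highest and 5 lowest members in WT GV oocytes, the 5 largest and 5 smallest differences of each comparison, members called against the majority, Rplp0, Rplp1, Rplp2, Rpl39, Rpl41, pairs of names that differ by an a and in call, and the 5 genes most like Rpl39; the other genes in the text were chosen after their values were seen. Coding sequences came from an mm9 annotation and starts from RefSeq (GRCm38.p6). Lists of small-subunit genes, assembly and export factors and cell type markers were also fitted, and 2 paralogs are described by their values; 1 further item is not reported here. The alternatives were no spike-in scaling, median scaling, a pseudocount of 0.1 FPKM, a mean of at least 5 FPKM, no filter, a replicate block, only the groups compared, no trend and leaving out each library; a crossed block was added after seeing the data.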

Additional observations from a re-analysis of the deposited data

Results flagged for a closer look

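The change from GV to MII differed between genotypes by the interaction term of limma for 40 of the 46 members, each more positive in Zar1/2-/- oocytes, and this difference between genotypes is why they are singled out. The 5 largest differences in that change were 8.002 for Rpl39, 6.39 for Rpl38, 6.21 for Rplp1, 5.68 for Rpl35 and 5.58 for Rpl41 on the log2 scale. Each of these 5 was lower in both WT MII libraries than in the other 10 libraries, and Rpl35 and Rpl39 were also called lower in Zar1/2-/- MII than GV oocytes. Groups of 2 libraries are too small for a search for single libraries that stand apart.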

How the results depend on the processing

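Of 170 recomputed counts and medians of members that did not leave out a library, 125 stayed within 1.5 times the count or within the replicate spread, 39 moved and 6 reversed. Every count of members higher at MII in Zar1/2-/- oocytes, and of members lower in WT MII than GV oocytes, was among those that stayed. Without the spike-in factors the counts higher and lower became 5 and 0 in growing and 8 and 0 in GV oocytes, 2 were lower at MII, 3 were higher in WT GV than growing oocytes, 5 were higher in Zar1/2-/- MII than GV oocytes, and the interaction was lower for 2 (Rpl4 and Rpl37). With median scaling the same counts were 4 and 0, 11 and 0, 2, 2, 7 and 2. The medians of members reversed to 0.18 (growing), 0.30 (GV) and 0.34 (WT GV minus growing) without the factors and to 0.18, 0.39 and 0.33 with median scaling. The scaling itself shifts all genes: without it the median of all genes went from -0.38 to -0.03 between genotypes at GV and from -1.28 to -0.43 for WT MII minus GV, and all genes called at GV were 827 higher and 1554 lower in place of 325 and 4666. Without the factors 1711 and 1412 genes were higher and lower in growing Zar1/2-/- oocytes (1224 and 2801 with them), 421 and 372 in WT GV than growing oocytes (319 and 3306), 2267 and 5473 in WT MII than GV oocytes (12 and 10747), 2248 and 4656 in Zar1/2-/- MII than GV oocytes (24 and 7903), and 1742 and 743 in the interaction (3903 and 74). Other settings moved small counts and, for a pseudocount of 0.1 FPKM, the median at MII (2.87). With that pseudocount 1 member was lower in Zar1/2-/- GV oocytes and 0 were higher in WT GV than growing oocytes; without a filter 1 was higher and 3 lower in growing Zar1/2-/- oocytes, and 0 higher and 2 lower in WT GV than growing oocytes; with only the groups compared 0 and 0 were called at GV; without a trend 2 were lower in WT GV than growing oocytes. Their cause was not tested.

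With the replicate number as a block, 3 members were lower in growing Zar1/2-/- oocytes and 2 in WT GV than growing oocytes, while Rpl34 joined those higher in growing Zar1/2-/- oocytes (3), Rpl41 those lower in Zar1/2-/- MII than GV oocytes (43) and Rpl6 those more positive in the interaction (41). The spike-in factors appear to go by the replicate number, so the scaled values are tied by it. The numbers were not read as pairs of samples, as correlations of replicate differences between groups ran from -0.117 to 0.163. Since that of the GV groups was -0.117, the pairing was also crossed there (added after seeing the data): 1 member was higher and 1 lower, and over all genes 266 and 3813, against 220 and 2450 as numbered.

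Leaving out each library in turn gave 39 to 43 members higher and 1 to 1 lower at MII, 36 to 40 more positive in the interaction, 39 to 43 lower in Zar1/2-/- MII than GV oocytes, 0 to 3 higher and 0 to 1 lower in growing Zar1/2-/- oocytes, 0 to 1 higher and 0 to 4 lower at GV, and 0 to 2 higher and 1 to 2 lower in WT GV than growing oocytes, where the median ran from -0.10 to 0.0053. With few fragments behind the lowest WT MII values (9 in 1 library), small differences among members there were not detectable.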
